A study of Mus musculus with 16 samples.

Results

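The comparison is between livers labelled as having lost part of the Met gene and livers labelled as floxed controls, in mice that received no canertinib. It uses 8 of the 16 expression arrays of the series: the 4 labelled MET_KO and the 4 labelled MET_FLOX, chosen by arm from the labels and paired by day. Partial hepatectomy, the removal of part of the liver, was performed in all arms, and liver was collected at days 0, 2, 7 and 14, with 1 array for each arm at each day. All 8 arrays carry the strain 129SV/C57BL/6 and the same genotype label, Metff/ff:ERCre+/+, so the floxed allele and the Cre recombinase are listed for both arms. Exon 16 of Met was deleted in the MET_KO mice through a system induced with tamoxifen. Whether MET_FLOX mice received tamoxifen, the animals' sex and age, and whether an array holds 1 animal or a pool are not stated in the labels. The other 8 arrays come from the same arms fed canertinib, which blocks kinases of the EGFR family, at an aimed dose of 80 mg/kg, and serve here as a second, separate genotype comparison. The question is which liver transcripts differ when MET is lost, before and during regrowth.

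MET is the cell surface receptor of hepatocyte growth factor (HGF), which non-parenchymal cells of the liver secrete and proteases activate from a precursor. Binding of HGF switches on the kinase of MET, which signals through the ERK and AKT pathways and supports division and survival of hepatocytes after loss of liver tissue. EGFR is a second receptor tyrosine kinase that drives overlapping pathways in hepatocytes.

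Values are MAS5 signals, a linear measure of probe set brightness, and differences are MET_KO minus MET_FLOX on the scale log2(signal + 16), which understates differences of dim genes. A value of 1 on this scale is thus close to a doubling for bright genes. Genes were tested with limma, with day as a block, and called at a Benjamini-Hochberg adjusted p below 0.05. The same way at 4 of 4 days means that all 4 day pairs differed in 1 direction. With 1 array per arm and day, the p-values reflect only how these arrays scatter, and an effect that varies by day counts as spread.

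Both Met probe sets gave signal in every array. The brighter one gave 1577, 1418, 1962 and 1041 in MET_FLOX at days 0, 2, 7 and 14 and 2066, 1618, 2036 and 1011 in MET_KO. The dimmer one gave 508, 522, 600 and 700 in MET_FLOX and 540.5, 440.5, 624 and 546 in MET_KO. The arms overlapped for both. The mean difference was 0.15 ± 0.19 (SD, n = 4 pairs; exact paired permutation test, two-sided, p = 0.25) for the brighter and -0.11 ± 0.22 (exact p = 0.5) for the dimmer probe set, where 4 pairs allow no p below 0.125. Where these probe sets lie relative to exon 16 was not analysed here, so Met signal does not check the deletion. Hgf, the ligand, differed by 0.17 (SE 0.22, adjusted p = 0.913) on its brightest probe set. Its dimmer probe sets gave -0.73 and -0.44.

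Signals of the hepatocyte genes Alb, Ttr, Apoa1 and Hnf4a were high in all 8 arrays, with lowest values of 18701 for Alb and 8743 for Hnf4a. The Y-linked genes Eif2s3y, Uty and Kdm5d gave signals above the array medians in all 8 arrays, at 437 to 1370, 407 to 564 and 260 to 379 on their brightest probe sets. Of 3 probe sets of Xist, the X-inactivation RNA, 2 stayed at or below 32.2 and 1 gave 229 to 1006. Array medians were 156.4 to 188.7 at days 0, 2 and 7 and 245.8 to 246.3 at day 14 in both arms, so each day pair lies within 1 level of the array median. The 3′ to 5′ signal ratio of Gapdh, a sign of RNA integrity, was 0.776 to 0.869 in MET_FLOX and 0.765 to 0.869 in MET_KO. The 3′ to 5′ ratio of actin at day 0 was 1.3 in MET_FLOX and 1.88 in MET_KO, the highest of the 8 arrays, and its part in the day 0 differences was not tested.

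Among 12229 genes tested, 1 gene was called, which is 0.00818% of them. This gene, Mmd2, was lower in MET_KO. At an unadjusted p below 0.05 stood 799 genes (6.53%), of which 354 (2.89%) were higher and 445 (3.64%) lower in MET_KO. With arrays centred on their medians the split turned to 606 higher and 298 lower, so the balance of directions over all genes depends on the scaling. The same way at 4 of 4 days were 936 genes higher (7.65%) and 938 lower (7.67%). Of these, 29 were higher (0.237%) and 56 lower (0.458%) by a mean of 1 or more, and 33 and 38 with arrays centred on their medians. The arms did not overlap, with all 4 values of 1 arm above all 4 of the other, for 153 of the 12229 genes. Of those 153, 79 were higher and 74 lower in MET_KO, so a lack of overlap is not particular to the genes named below.

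The day pairs resembled each other little. Over the 12229 genes, Pearson's r between the differences of any 2 days lay between 0.0144 and 0.106, a description over genes that share arrays and are not independent. The day 0 pair differed most widely, with 409 genes higher and 609 lower by 1 or more, and the day 7 pair least, with 217 higher and 256 lower.

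Mmd2 encodes a membrane protein of the PAQR family. Its signals in MET_FLOX were 5754, 5642, 4476 and 806 at days 0, 2, 7 and 14. In MET_KO they were 316, 361, 499 and 135. All 4 MET_KO values lay below all 4 MET_FLOX values. Mmd2 fell by 3.40 on the log2 scale (SE 0.27, 10.5-fold, adjusted p = 0.0132), with pair differences of -4.12, -3.91, -3.12 and -2.44. A second probe set gave -3.36, and a dim one, which stayed at or below 215, gave -0.12. The call ended when day was not used as a block (adjusted p = 0.9999), in both fits of all 16 arrays (0.371 and 0.310), without the variance trend (adjusted p = 0.142), when a gene's probe sets were averaged (adjusted p = 0.0635) and when the pair of day 0, 2 or 7 was left out (adjusted p = 0.0954, 0.212 and 0.0944). The difference itself stayed between -3.16 and -3.49 in all of these.

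Without the day 14 pair, over the 3 days of low array medians, 4 genes were called. They were Mmd2 (-3.72, adjusted p = 0.00857), Hsd3b5 (6.18, adjusted p = 0.00857), Cyp17a1 (-2.22, adjusted p = 0.00857) and Adssl1 (-2.22, adjusted p = 0.0141). Leaving out any other day pair left 0 genes called. The remaining genes are therefore given by their values, beside adjusted p from the fit of all 4 days.

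Hsd3b5, a steroid dehydrogenase of the liver whose expression is a mark of male mice, was higher in MET_KO in each pair. In MET_FLOX its signals were 54.5, 9 and 9.3 at days 0, 2 and 7 and 1271 at day 14. In MET_KO they were 12599, 1072, 1224 and 7532. MET_FLOX was near the floor of the array at days 2 and 7, while the day 14 value of MET_FLOX was above 2 of the MET_KO values, so the groups overlapped. The mean difference was 5.27 (SE 0.63, adjusted p = 0.178) with 16 added to each signal, 6.01 with 1 added and 4.34 with 64. Its size thus depends on the value added.

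Cyp17a1, a steroid hydroxylase and lyase with female-biased expression in mouse liver, ran the other way. In MET_FLOX it gave 2562, 3559, 1976 and 602, and in MET_KO 557, 723, 414 and 388. Each MET_KO value was below that of its own day, and the day 14 pair differed least. The mean difference was -1.82 (SE 0.27, adjusted p = 0.276), and the day 14 pair stood apart at -0.61 beside -2.17, -2.27 and -2.21.

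**Figure D1:**
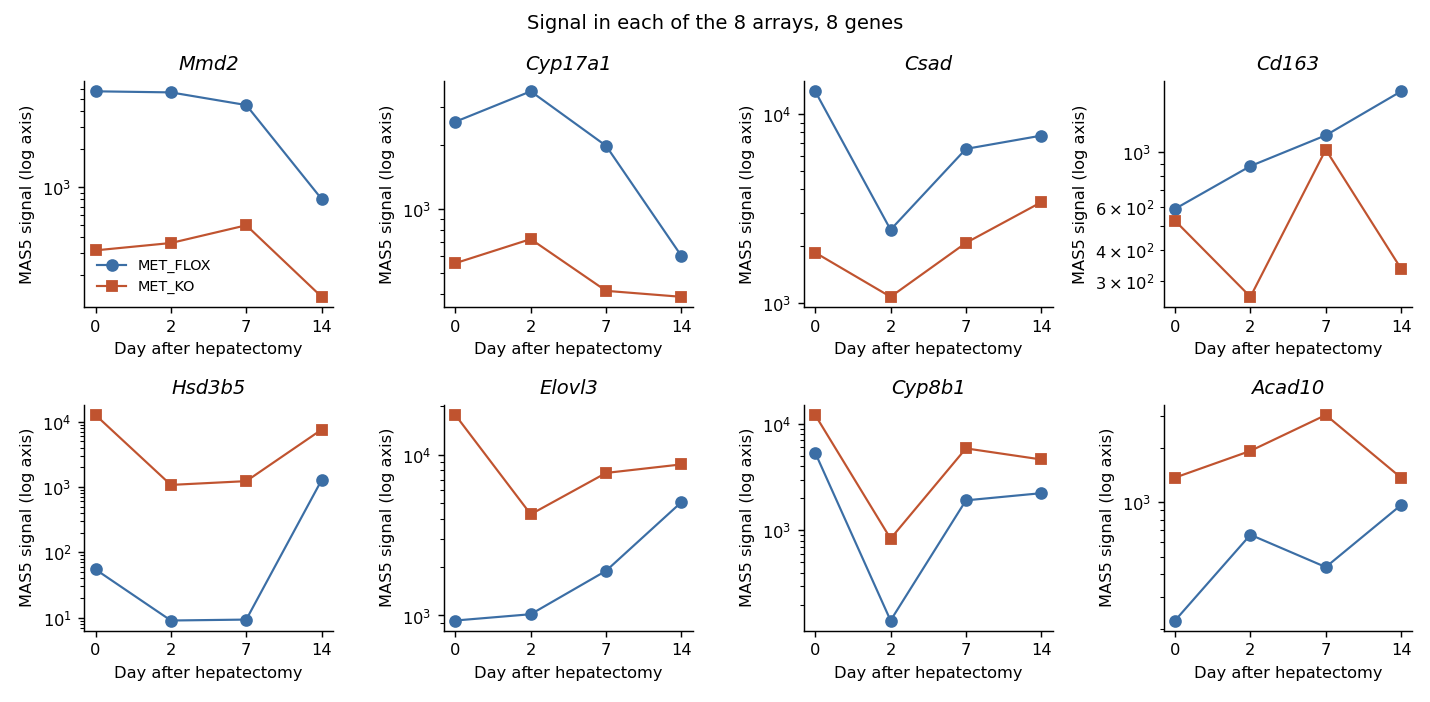
MAS5 signal on a log axis against day after hepatectomy for 8 genes, with 1 point per array, MET_FLOX as circles and MET_KO as squares. Mmd2, Cyp17a1, Csad and Cd163 lie lower and Hsd3b5, Elovl3, Cyp8b1 and Acad10 higher in MET_KO in each day pair, with the gap of Cyp17a1 smallest at day 14.

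Sex-biased genes of the liver follow the growth hormone pattern of the animal, and the 2 lists of such genes were examined next. Both lists were trimmed after a first fit had been seen, which took Mmd2, Ptgds and Fam126a out of the female-biased and Serpine2 and Susd4 out of the male-biased list, so their counts are a description and no independent evidence. Of 20 male-biased genes, 16 passed the signal filter, and 7 of them were higher and 2 lower at an unadjusted p below 0.05, beside 2.89% and 3.64% of all genes, with a median difference of 0.31 beside -0.004 over all genes. The medians by day were 0.84, -0.05, 0.30 and 0.45, and the count of 7 was 5 to 9 with a day pair left out, 4 without day as a block and 5 over all 16 arrays. Of 25 female-biased genes, 15 passed, with 1 higher and 3 lower beside the same shares and a median of -0.45. Its medians by day were -0.76, -0.09, -0.17 and -0.11, so the day 0 pair differed most.

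Elovl3, an elongase of very long chain fatty acids, gave 931, 1018, 1897 and 5077 in MET_FLOX and 17681, 4262, 7711 and 8714 in MET_KO. The gap narrowed from the day 0 pair to the day 14 pair, and the mean difference was 2.27 (SE 0.45, adjusted p = 0.418). Slco1a1, an organic anion transporter, gave 2660, 1433, 963 and 2878 in MET_FLOX and 10676, 2338, 1462 and 8621 in MET_KO, a difference of 1.22 (SE 0.24). Cyp2d9 differed by 0.89, Cyp4a12a, a fatty acid hydroxylase, by 0.91, Egfr by 0.75 and Keg1 by 0.58. The 2 male-biased genes lower at an unadjusted p below 0.05 were Cyp7b1, an oxysterol hydroxylase of bile acid synthesis, at -0.69 and Ugt2b38, a glucuronosyltransferase, at -0.65. Gstp3, also of this list, had the lowest mean, at -0.91 (SE 0.55), with pair differences of -0.70, 0.33, 0.21 and -3.48. On the female-biased side, Cyp2b9, a cytochrome P450, gave 1358, 288, 655 and 379 in MET_FLOX and 208, 105, 186 and 402 in MET_KO, a difference of -1.40 (SE 0.38, adjusted p = 0.557) with the day 14 pair at 0.08. Slco1a4, another organic anion transporter, differed by -0.66 and Cyp39a1, an oxysterol hydroxylase, by 0.58. Cyp2d9, Keg1, Ugt2b38, Cyp2b9 and Slco1a4 were chosen after their values were seen.

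Growth hormone also acts on insulin-like growth factor (IGF) genes. Of 19 genes of the growth hormone, STAT5 and IGF axis, 17 passed, with a median of -0.003. At an unadjusted p below 0.05, 2 were higher and 0 lower, beside 2.89% and 3.64% of all genes. Those 2 encode IGF binding proteins. Igfbp2 gave 4506, 9242, 2844 and 3253 in MET_FLOX and 9011, 12001, 8094 and 8668 in MET_KO. It was higher in MET_KO at each day, by a mean of 1.07 (SE 0.19, adjusted p = 0.418), and Igfbp3 by 0.52 (SE 0.15) on the brighter of its probe sets. The other Igfbp3 probe set, at 205.2 to 626.6, gave -0.20, and the mean of both differed by 0.16.

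Among genes with all 4 pairs the same way, an unadjusted p below 0.05 and the brighter arm above the array median at 3 or more days, the 15 largest upward differences, Hsd3b5 and Elovl3 among them, ranged from 1.22 to 5.27, and the 15 largest downward differences, with Mmd2, from -1.43 to -3.40. Adjusted p was 0.178 to 0.701 for the former and 0.0132 to 0.741 for the latter. Cyp8b1, the hydroxylase that directs bile acid synthesis to cholic acid, gave 5347, 142, 1912 and 2234 in MET_FLOX and 12105, 836, 5882 and 4630 in MET_KO. It was low at day 2 in both arms and higher in MET_KO in each pair, by 1.57 (SE 0.22, adjusted p = 0.276). Aldh1b1, a mitochondrial aldehyde dehydrogenase, gave 356, 472, 586 and 274 in MET_FLOX and 881, 1126, 3108 and 455 in MET_KO, a difference of 1.39 (SE 0.25).

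Acad10, a member of the acyl-CoA dehydrogenase family, gave 222, 661, 438 and 965 in MET_FLOX and 1367, 1919, 3028 and 1363 in MET_KO, so the arms did not overlap. Its difference was 1.82 (SE 0.34, adjusted p = 0.418) on this probe set and 0.20 on the other. Egr1, an immediate-early transcription factor, differed by 1.48 (SE 0.41), and its signals of 3066 and 1990 in MET_KO at days 0 and 2 stood beside 376 and 451 in MET_FLOX. Pygm, a glycogen phosphorylase of muscle, differed by 1.55, Derl3, which acts in degradation of misfolded proteins of the endoplasmic reticulum, by 1.30, and Hsd17b6, a hydroxysteroid dehydrogenase, by 1.29. The others of the upward 15 were Zfp9, Olig1, Nos1ap, Tmem158 and Gm12843, at 1.22 to 1.58. On dimmer probe sets, Hsd17b6 gave 0.26, Nos1ap 0.16 and Tmem158 -0.16 and -0.21.

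Csad, the decarboxylase that makes hypotaurine for taurine synthesis, gave 13169, 2444, 6535 and 7680 in MET_FLOX and 1850, 1080, 2082 and 3418 in MET_KO. Each pair differed downward by more than 1, and the mean difference was -1.70 (SE 0.26, adjusted p = 0.276). Krt79, a keratin, gave 802, 685, 540 and 586 in MET_FLOX and 235, 126, 299 and 177 in MET_KO, so that the arms did not overlap, and differed by -1.62 (SE 0.25). Krt79 and Csad lie on chromosome 15 with 7 tested genes between them, and Krt78, the one that differed most of these, was at -0.39 and Tns2 at 0.25. The genes on their outer sides, Krt4 and Zfp740, differed by -0.75 and -0.64.

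Inf2, a formin that acts on actin filaments, and Adssl1, an adenylosuccinate synthase, are neighbours on chromosome 12 with no tested gene between them. Inf2 gave 10146, 5445, 9046 and 1496 in MET_FLOX and 1241, 1517, 1826 and 1230 in MET_KO, a difference of -1.86 (SE 0.37). Adssl1 gave 2432, 4136, 1956 and 99 in MET_FLOX and 599, 711, 426 and 72.8 in MET_KO, a difference of -1.76 (SE 0.32). Both genes were far lower in MET_KO at days 0, 2 and 7, and both pairs came close at day 14, where MET_FLOX was itself low. The genes on either side, Tmem179 and Siva1, differed by 0.17 and 0.15.

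Prtn3, a serine protease of neutrophil granules, gave 930, 602, 3717 and 798 in MET_FLOX and 74.7, 330, 1722 and 254 in MET_KO, a difference of -1.73 (SE 0.37). Obp2a, a lipocalin, differed by -1.73, Rasal3, a GTPase-activating protein of Ras, by -1.76, Chil4, a chitinase-like protein, by -1.43 and Ptgds, a prostaglandin D synthase, by -1.44. Olfr17, Qpct and Zscan5b completed the downward 15 with Orm2, at -1.47 to -1.53.

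Kupffer cells are the resident macrophages of the liver. Of 22 marker genes of Kupffer cells and macrophages, 18 passed the filter, and 11 of them were lower and 0 higher in MET_KO at an unadjusted p below 0.05, beside 3.64% and 2.89% of all genes. None was called after adjustment. The median difference was -0.64, and the medians by day were -0.55, -0.81, -0.14 and -1.04. Summed over the 18 markers, signal was 34650 to 94460 in MET_FLOX and 22750 to 64760 in MET_KO, so the ranges overlapped.

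Timd4, a phosphatidylserine receptor of resident macrophages, gave 583, 357, 762 and 1542 in MET_FLOX and 316, 180, 554 and 426 in MET_KO. It was lower in MET_KO in each pair, by a mean of -1.01 (SE 0.23, adjusted p = 0.423). Cd5l, a protein that macrophages secrete, gave 8340, 7858, 16794 and 15268 in MET_FLOX and 4504, 4276, 13081 and 5086 in MET_KO, a difference of -0.93 (SE 0.19). The complement genes C1qc and C1qa differed by -0.89 and -0.81, and C1qb by -0.63. Cd163, the scavenger receptor of haemoglobin, differed by -1.10 (SE 0.36), with pair differences of -0.16, -1.71, -0.19 and -2.35.

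Marco, a scavenger receptor, differed by -1.20, Vsig4, a complement receptor, by -0.74, Clec4f, a lectin of Kupffer cells, by -0.63, Adgre1, which encodes the F4/80 antigen, by -0.47 and Csf1r, the receptor of macrophage growth factors, by -0.45. Some pairs ran the other way, with Marco at 0.25 and C1qb at 0.11 at day 7, Csf1r at 0.21 at day 0 and Clec4f at 0.18 at day 14. Marco was at -0.65 without the day 14 pair. Mpeg1, a pore-forming protein of macrophages, and Ccr2, the chemokine receptor of recruited monocytes, differed by 0.21 and 0.26, which is the opposite sign to the markers named above. In bulk liver, fewer cells of a type and less RNA per cell cannot be told apart. The count of 11 became 7 without the day 14 pair, 6 without day as a block and 4 over all 16 arrays. Marco, C1qa, C1qb, Vsig4, Clec4f, Adgre1, Csf1r, Mpeg1 and Ccr2 were chosen after their values were seen.

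Acute phase proteins are secreted by hepatocytes in response to cytokines such as IL-6. Of 29 genes, 28 passed, and 11 were lower and 0 higher at an unadjusted p below 0.05, beside 3.64% and 2.89% of all genes. At 4 of 4 days 14 were lower and 1 higher, beside 7.67% and 7.65% of all genes. The median difference was -0.25, with -0.31, -0.42, -0.26 and -0.19 by day. The Kupffer markers described above moved in the same direction, and their part in this was not tested. The count of 11 was 9 to 12 with a day pair left out, and 2 both without day as a block and over all 16 arrays. Of 26 genes of other proteins that hepatocytes secrete, 2 were lower and 2 higher at that threshold, beside the same shares, with a median of -0.13. At 4 of 4 days 7 of the 26 were lower and 1 higher. Alb was at -0.33 (SE 0.13), Ttr at -0.30 (SE 0.13) and Apob at 0.36 (SE 0.15).

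The genes that differed most encode orosomucoids, which are carrier glycoproteins, and serum amyloid A proteins, which are apolipoproteins of inflammation. The upstream regions of Orm2 and Saa3 are shown because both hold the letters of a site of C/EBP, a factor of acute phase transcription. Each sequence is the 250 bases before the first listed start of the gene in RefSeq (build GRCm38.p6), 5′ to 3′ on the gene's strand, with the match in capitals.
Orm2 (chr4:63362199-63362448, plus strand): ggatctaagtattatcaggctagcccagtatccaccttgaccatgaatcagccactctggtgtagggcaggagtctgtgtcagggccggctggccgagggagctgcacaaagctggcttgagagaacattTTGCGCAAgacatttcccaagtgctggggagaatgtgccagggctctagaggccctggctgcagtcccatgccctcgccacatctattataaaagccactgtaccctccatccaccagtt
Saa3 (chr7:46715677-46715926, minus strand): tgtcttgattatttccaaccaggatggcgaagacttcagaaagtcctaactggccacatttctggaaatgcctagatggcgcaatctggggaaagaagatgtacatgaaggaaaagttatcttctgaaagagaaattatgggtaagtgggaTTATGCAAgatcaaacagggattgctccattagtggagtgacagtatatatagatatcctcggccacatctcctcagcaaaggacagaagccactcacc
The letters searched were TTGCNNAA on both strands, which 9.55% of 27025 such windows hold. Of the 28 acute phase genes, 23 had a window, and 13 of these held a match. Orm2 and Orm3 are near copies, as are Saa1 and Saa2, so these windows are not independent. The 6 motifs searched here were also searched in the male-biased and female-biased lists. There this one was in 2 of 12 and 3 of 11 windows, and AGGTCA in 3 of 12 and 4 of 11. Among the 6 motifs, this one was picked after the matches were seen. Of the others, TTCNNNGAA of STAT factors (7.18% of windows) was in 7 of the 23, AGGTCA of nuclear receptors (13.8%) in 6, and TATAAA (13%) in 4. CAAAGTCCA of HNF4 (0.381%) and the palindromic site of HNF1 (0.0074%) were in 0. A match is a description of letters and not of a bound site.

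Orm2 gave 1770, 4720, 38136 and 12305 in MET_FLOX and 350, 2407, 28670 and 2646 in MET_KO. Both arms were highest at day 7, and MET_KO was lower in each pair, by a mean of -1.47 (SE 0.30, adjusted p = 0.423). Saa3 gave 1179, 955, 2547 and 3715 in MET_FLOX and 575, 346, 1707 and 812 in MET_KO, a difference of -1.30 (SE 0.24). Saa2 differed by -1.42 (SE 0.32), Orm3 by -1.27 (SE 0.31), Saa1 by -0.80 and Orm1 by -0.60. Orm1 was the steadiest of them, with pair differences of -0.62, -0.59, -0.68 and -0.51. Since Orm and Saa genes have near-identical copies, probe sets may read more than 1 of them. Lcn2, an iron-siderophore binding lipocalin of hepatocytes and neutrophils, differed by -0.79 and Hp, haptoglobin, by -0.42. Orm1, Saa1 and Hp were chosen after their values were seen.

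**Figure D2:**
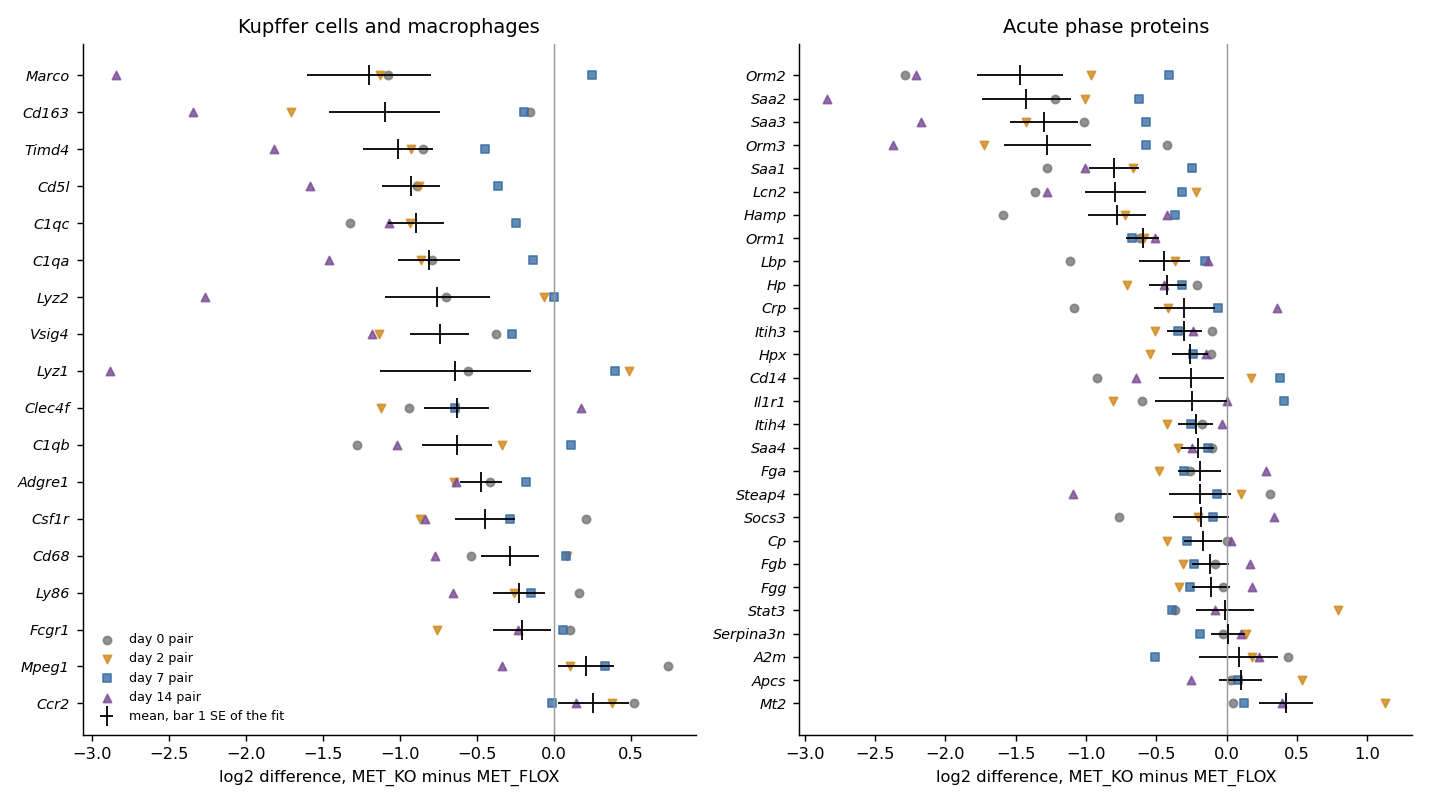
Pair differences on the log2 scale (MET_KO minus MET_FLOX) of the 18 Kupffer and macrophage markers and the 28 acute phase genes that passed the signal filter, with 1 symbol per day and the mean with 1 SE of the fit in black. Most markers lie left of 0 at days 0, 2 and 14, with day 7 closest to 0, and Orm2, Saa2, Saa3, Orm3 and Saa1 have the lowest means in the right panel, where Saa4 is at -0.21.

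Of 34 cytokine and chemokine genes, 25 passed, and 6 were lower and 0 higher at an unadjusted p below 0.05, beside 3.64% and 2.89% of all genes, with a median of -0.21. Cxcl13, a chemokine that attracts B cells, differed by -0.91 (SE 0.29) with 8634 in MET_FLOX and 1929 in MET_KO at day 14. Il1b, an inflammatory cytokine, differed by -0.65 (SE 0.21) and Ccl6, a chemokine, by -1.25 with day 7 opposite at 0.63, and by -0.68 over the mean of its probe sets. The members of the list above 0 on average were Osm at 0.72 (SE 0.41), Il1a at 0.68 (SE 0.34), Inhbe at 0.37, Ccl9 at 0.26, Ccl2 at 0.14, Cxcl12 at 0.08 and Cxcl9 at 0.06. The count of 6 became 4 without the day 0 pair, 2 without the day 14 pair, 3 with arrays centred on their medians and 0 both without day as a block and over all 16 arrays. Ccl6 and the members above 0 were chosen after their values were seen.

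Hepatocytes near the portal vein and near the central vein carry different enzymes. Of 17 periportal genes, 15 passed, with 5 higher and 2 lower at an unadjusted p below 0.05, beside 2.89% and 3.64% of all genes, and a median of 0.20. Of 22 pericentral genes, 21 passed, with 0 higher and 5 lower beside the same shares and a median of -0.24. At 4 of 4 days 9 pericentral genes were lower and 0 higher, beside 7.67% and 7.65% of all genes. Aldh1b1, described above, Gldc, of the glycine cleavage system, at 0.79 (SE 0.17), Hal, which breaks down histidine, at 0.64 (SE 0.16) and Cyp2f2, a cytochrome P450, at 0.37 were among the 5. The remaining one, the lipid droplet gene Hsd17b13, was at 0.35 on its brightest probe set and at -0.01 over the mean of its probe sets. The 2 lower genes were Ctsc, a lysosomal protease that macrophages also express, at -0.53 and Pck1 at -0.46 (SE 0.18). Of the rest, Igf1 was at -0.29, Uroc1 at -0.19, Cps1 at -0.08 and Arg1 at -0.01. Ass1 was at 0.15 (SE 0.45), Sfxn1 at 0.20, Cdh1 at 0.22 and Etnppl at 0.46.

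Among pericentral genes, Aldh3a2, a fatty aldehyde dehydrogenase, gave 6979, 6397, 5731 and 4917 in MET_FLOX and 4341, 4552, 4297 and 3575 in MET_KO, so the arms did not overlap. The difference was small and steady, at -0.51 (SE 0.12, adjusted p = 0.474). Cyp27a1, a sterol hydroxylase, differed by -0.45, Slc1a2, a glutamate transporter, by -0.38 and Lect2, a secreted protein, by -0.37. The members of the list above 0 on average were Gulo at 0.09, Cyp1a2 at 0.17, Nkd1 at 0.22, Znrf3 at 0.22 and Axin2 at 0.22. Lgr5 was at -0.05 and Tbx3 at -0.02. The defining enzyme of the innermost zone, the glutamine synthetase Glul, differed by -0.49 (SE 0.23) with the day 0 pair at 0.10. The pericentral count became 2 without the day 2 pair, 3 without the day 7 pair, 1 without day as a block and 0 over all 16 arrays. The periportal count became 3 without the day 7 pair, 2 without day as a block and 1 over all 16 arrays. Glul, Hsd17b13, Pck1 and the periportal and pericentral genes given by value alone were chosen after their values were seen.

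Of 25 genes of bile acid synthesis and transport, 24 passed, with a median of -0.02. At an unadjusted p below 0.05, 4 were higher and 4 lower, beside 2.89% and 3.64% of all genes. Cyp8b1, Slco1a1, Cyp39a1 and the FGF receptor Fgfr4 (0.35, and 0.13 over the mean of its probe sets) were on the higher side, and Cyp7b1, Slco1a4, Cyp27a1 and the uptake transporter Slco1b2 (-0.44) on the lower. Cyp7a1, the rate-limiting enzyme of the classic pathway, gave 2309, 1384, 1924 and 5003 in MET_FLOX and 1472, 1960, 2046 and 905 in MET_KO. The pairs did not go 1 way, with -2.45 at day 14, and the mean of -0.63 had an SE of 0.41. Fgfr4, Slco1b2 and Cyp7a1 were chosen after their values were seen.

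The ERK list holds immediate-early genes and feedback inhibitors that growth factor receptors induce. Of 27 genes, 24 passed, and 5 were higher and 0 lower at an unadjusted p below 0.05, beside 2.89% and 3.64% of all genes, with a median of 0.27. Higher in MET_KO were, beside Egr1, the immediate-early gene Ier2 at 0.56 (SE 0.14), the antiproliferative gene Btg2 at 0.61 (SE 0.25), the ERK inhibitor Spred2 at 0.48 (SE 0.17) and Zfp36, which destabilises messenger RNA, at 0.33 (SE 0.14). Of 5 Spred2 probe sets, 3 dimmer ones gave -0.54, -0.21 and -0.49, and the mean of its probe sets that passed the filter differed by 0.17. Ier2 gave 880, 666, 899 and 754 in MET_FLOX and 1364, 1109, 1324 and 949 in MET_KO, where the arms did not overlap. Fos gave 54.3 in MET_FLOX and 329 in MET_KO at day 0 and a mean difference of 0.76 (SE 0.41), and Myc -0.55 (SE 0.31). At day 2 the list's median was 0.45 and 21 of 24 genes were above 0, as were 51.4% of all genes. The count of 5 was 2 without the day 2 pair, 3 without the day 7 pair, 3 after quantile normalization, 3 without day as a block and 2 over all 16 arrays. Btg2, Zfp36, Fos and Myc were chosen after their values were seen.

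In the HGF and MET list, 21 of 25 genes passed, with a median of 0.02. At an unadjusted p below 0.05, 2 were higher and 1 lower, beside 2.89% and 3.64% of all genes. Plxnb1, a semaphorin receptor that associates with MET, gave 715, 852, 852 and 463 in MET_FLOX and 1016, 1520, 1186 and 846 in MET_KO, a difference of 0.66 (SE 0.14, adjusted p = 0.423). Ranbp9, an adaptor that binds MET, differed by 0.56 (SE 0.19) on the brighter and by -0.03 on the other of its probe sets. St14, a membrane protease of the family that activates HGF, differed by -1.21 (SE 0.48) and mainly at days 7 and 14. In the EGFR list 8 of 13 genes passed, and Egfr itself gave 3308, 5516, 7621 and 4415 in MET_FLOX and 11223, 7636, 7706 and 7563 in MET_KO. The day 7 pair was level, the day 0 pair differed by 1.76, and the mean was 0.75 (SE 0.25, adjusted p = 0.685). Of 7 Egfr probe sets, 3 dimmer ones gave -0.10, -0.09 and -0.31, and the mean of its probe sets that passed the filter differed by 0.36.

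Hepatocytes enter the cell cycle in the first days after the operation. Of the 25 DNA replication genes that passed, 0 stood at an unadjusted p below 0.05 in either direction, and of 24 mitosis genes 1 did each way. Of all genes, 2.89% were higher and 3.64% lower at that threshold. At day 2, 22 of the 25 replication genes and 21 of the 24 mitosis genes were above 0, beside 51.4% of all genes, with medians of 0.43 and 0.41. The replication genes had medians of 0.06, -0.12 and -0.22 at days 0, 7 and 14, with 15 of 25 below 0 at day 7 and 17 of 25 at day 14, beside 49.1% and 49.9% of all genes. Mki67, a marker of dividing cells, gave 190, 1690, 530 and 245 in MET_FLOX and 59.6, 2839, 326 and 368 in MET_KO. Its signal was highest at day 2 in both arms, and the MET_KO value was above that of MET_FLOX at days 2 and 14 and below it at days 0 and 7. Rrm2, of deoxynucleotide synthesis, gave 6390 and 10002 at day 2 in MET_FLOX and MET_KO, Mcm5, of the replicative helicase, 2051 and 3249, and Pcna, the polymerase clamp, 9267 and 10301. At days 0, 7 and 14 the differences were 0.01, -0.39 and 0.17 for Rrm2, -0.24, -0.15 and 0.14 for Mcm5 and -0.02, -0.40 and -0.37 for Pcna. Over the 4 days the means were 0.11, 0.10 and -0.16, and without the day 2 pair those of Rrm2 and Mcm5 were -0.07 and -0.08.

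The mitosis genes had medians of -0.47, 0.41, -0.54 and 0.00 by day. At day 0, 19 of 24 were below 0, beside 53.4% of all genes, and at day 7, 20 of 24, beside 49.1%. Cdk1, the mitotic kinase, gave 294, 3234, 997 and 197 in MET_FLOX and 51.8, 4354, 784 and 215 in MET_KO. Ccnb2, a mitotic cyclin, gave 178, 1469, 906 and 132 in MET_FLOX and 28.9, 2584, 479 and 58.5 in MET_KO, and Top2a, a topoisomerase, 2242 and 3783 at day 2. These are differences between 1 array and 1 array at a day and have no replicate check. Ccnd1, the cyclin of entry into the cycle, gave 1802, 6256, 3632 and 2308 in MET_FLOX and 1152, 8099, 2187 and 1713 in MET_KO, a mean of -0.36 (SE 0.19, adjusted p = 0.799). Rrm2, Mcm5, Pcna, Cdk1, Ccnb2 and Top2a were chosen after their values were seen.

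Cholesterol synthesis genes are controlled together by SREBP factors. Of 24 genes, 20 passed, with 0 higher and 1 lower at an unadjusted p below 0.05, beside 2.89% and 3.64% of all genes. The medians of the cholesterol genes were 0.01 and 0.29 at days 0 and 2 and -0.72 and -0.88 at days 7 and 14. At day 7, 20 of 20 were below 0 and at day 14, 19 of 20, beside 49.1% and 49.9% of all genes. Idi1, an isomerase of the pathway, gave 8578, 7260, 10671 and 10916 in MET_FLOX and 8604, 9034, 4446 and 3107 in MET_KO. The arms were level at day 0 and farthest apart at day 14. Fdps gave 7461 and 1631 at day 14 in MET_FLOX and MET_KO, Hmgcs1, the synthase of the first committed steps, 19650 and 6424, and Msmo1, a sterol oxidase, 8358 and 2626. Cyp51, a sterol demethylase, was the gene at an unadjusted p below 0.05, at -0.77 (SE 0.25, adjusted p = 0.676).

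Of 20 genes of fatty acid and triglyceride synthesis, 18 passed, and 0 stood at that threshold. At day 0 their median was 0.82 and 15 of 18 were above 0, beside 46.6% of all genes. Later medians were -0.16, -0.21 and -0.17. Elovl6, a fatty acid elongase, gave 2109 in MET_FLOX and 6036 in MET_KO at day 0 and differed by -0.21, -0.55 and -0.33 after that. Acaca, acetyl-CoA carboxylase, differed by 1.32 at day 0, and by 0.23, -0.19 and -0.08 after that. Idi1, Fdps, Hmgcs1, Msmo1, Cyp51, Elovl6 and Acaca were chosen after their values were seen.

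**Figure D3:**
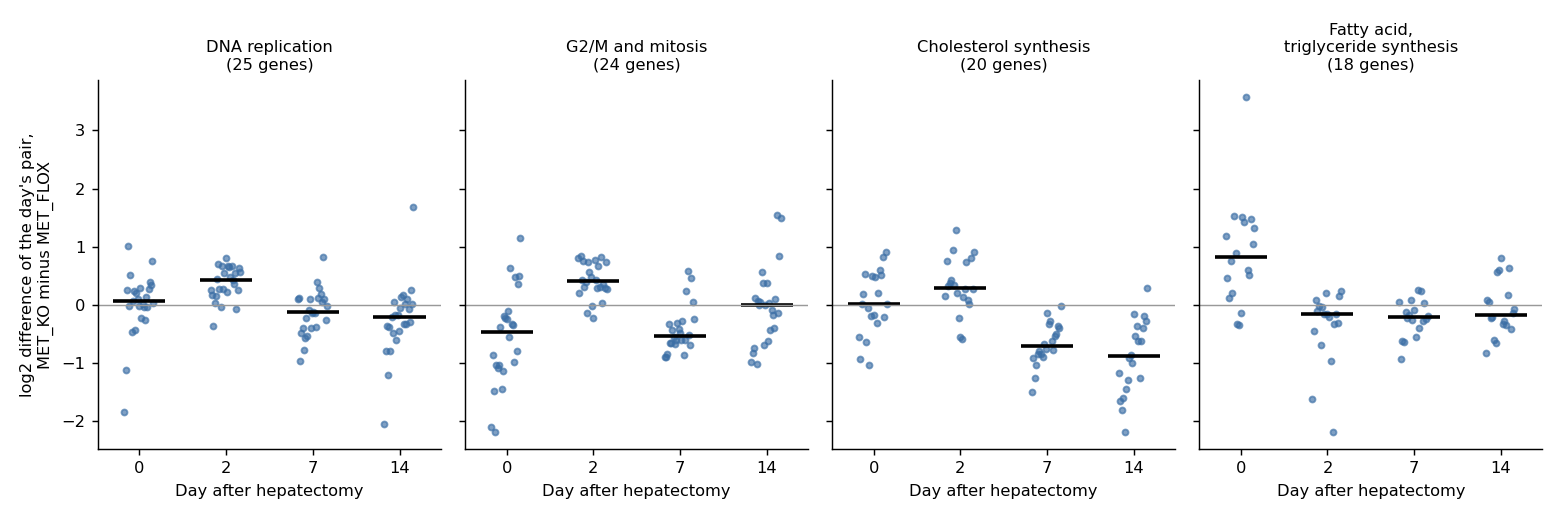
Log2 difference of each day's pair (MET_KO minus MET_FLOX) for the genes of 4 lists, with 1 point per gene and the median as a bar. Above 0 lie 22 of 25 replication and 21 of 24 mitosis genes at day 2 and 15 of 18 fatty acid genes at day 0, and 20 of 20 and 19 of 20 cholesterol genes lie below 0 at days 7 and 14.

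The difference at a day was tested against the mean of the other days with limma. At day 2, 0 genes were called (0%), with 503 at an unadjusted p below 0.05, and at day 14, 0 (0%), with 689. Days 0 and 7 were looked at too and gave 0 called, with 1386 and 292. The genes with small p included Mvk, mevalonate kinase of cholesterol synthesis, whose day 2 pair exceeded the others by 2.23 (SE 0.33, adjusted p = 0.716), and Depp1, which differed by -3.57 (adjusted p = 0.716). At day 14, Plk3, a stress-responsive kinase, was at 1492 in MET_FLOX and 31.2 in MET_KO, which differed from its other days by -4.58 (SE 0.39, adjusted p = 0.111). Gstp3, a glutathione transferase, differed by -3.43 (SE 0.44, adjusted p = 0.493).

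The genotype difference was compared with that between MET_KO_canertinib and MET_FLOX_canertinib, which shares no array with it. Of the 29 genes higher in MET_KO by 1 or more, 11 were above 0 and 18 below 0 on average under canertinib. Of these, 0 were higher and 8 lower at 4 of 4 days. Of the 56 lower genes, 35 were above 0 and 21 below 0 under canertinib, and 7 were higher and 3 lower at 4 of 4 days. Over all genes 49.8% were above 0 on average under canertinib, and 6.34% were higher and 6.73% lower at 4 of 4 days. The difference between the 2 genotype differences was tested with limma on the pair differences, and 1 gene was called (0.00818%), with 788 at an unadjusted p below 0.05. All 8 canertinib arrays had medians of 244 to 265.1, unlike days 0, 2 and 7 here. Their Gapdh ratios ran from 0.95 to 2.24, with the highest in MET_FLOX_canertinib at day 14, against 0.765 to 0.869 here. The part of either in the comparison was not tested.

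Cyp17a1 was that gene. Under canertinib the flox arm gave 268, 661, 592 and 778 and the knockout arm 3264, 4258, 6125 and 7073. The knockout arm was thus the high arm with the drug and the low arm without it, with no overlap under canertinib. The genotype difference was -1.82 without and 3.17 with canertinib, and they differed by -4.99 (SE 0.37, adjusted p = 0.00078). Without the day 0 pairs no gene was called here, and without the day 14 pairs 9 were.

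For Mmd2 the flox arm under canertinib gave 677, 774, 90.5 and 494 and the knockout arm 3594, 4241, 9085 and 1350. Its genotype differences of -3.40 and 3.16 differed by -6.56 (SE 0.90, adjusted p = 0.13). For Hsd3b5 these were 1208, 1084, 93.8 and 2030 in the flox and 16.5, 305, 52.1 and 18.8 in the knockout arm, so that its differences of 5.27 and -3.40 were opposite at all 4 days (difference of 8.67, SE 1.26, adjusted p = 0.137). Igfbp2, at 1.07 and -1.67, Slco1a1, at 1.22 and -1.14, Egr1, at 1.48 and -1.38, and Obp2a, at -1.73 and 1.97, were also opposite at 4 of 4 days in both. In all 15 of the 85 genes were. Cyp8b1, at 1.57 and 0.11, and Acad10, at 1.82 and 0.08, were close to 0 under canertinib. The male-biased list had a median of 0.31 without and -0.61 with canertinib, and the female-biased list -0.45 and 0.46. For the Kupffer markers these were -0.64 and -0.07, and for the acute phase genes -0.25 and 0.21. The sign was also kept in the pericentral list, at -0.24 and -0.17, the periportal, at 0.20 and 0.02, and the ERK list, at 0.27 and 0.09. It changed in the cytokine list, at -0.21 and 0.20, and the cholesterol list, at -0.32 and 0.44. The differences between list medians were not tested.

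**Figure D4:**
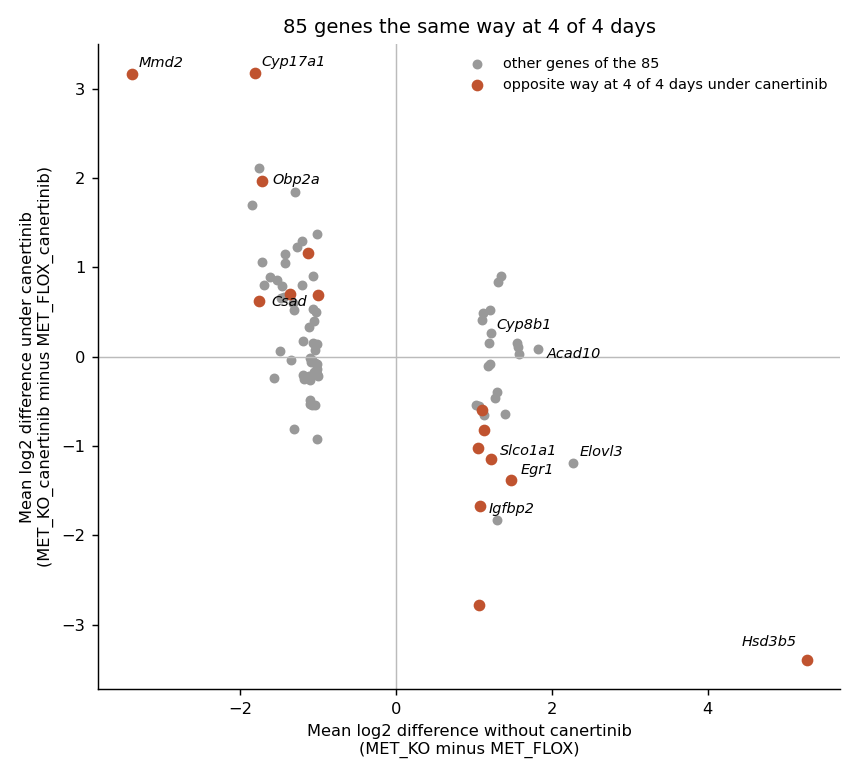
Mean log2 genotype difference under canertinib (MET_KO_canertinib minus MET_FLOX_canertinib) against that without it (MET_KO minus MET_FLOX) for the 85 genes the same way at 4 of 4 days by 1 or more without the drug. The 15 genes that went the opposite way at 4 of 4 days under canertinib are coloured, with Mmd2 and Cyp17a1 at the upper left and Hsd3b5 at the lower right.

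The lists described were picked from 40. Of these, 7 had 5 or more genes at an unadjusted p below 0.05 in 1 direction, and they are the Kupffer, acute phase, cytokine, male-biased, ERK, periportal and pericentral lists. The other 33 had 4 or fewer each way. A count of 5 is harder to reach in a short list, and 2 of 5 adipocyte and 2 of 8 cholangiocyte and progenitor genes were higher. Of all genes, 2.89% were higher and 3.64% lower at that threshold. Medians of the 40 ranged from -0.64 for Kupffer cells to 0.40 for adipocytes, of whose genes 5 passed. Among other cell types, 0 of 17 endothelial, 0 of 22 stellate cell and matrix and 0 of 11 lymphocyte genes stood at that threshold, with medians of -0.08, 0.00 and -0.14. Of 11 neutrophil genes 3 were lower and 0 higher, beside 3.64% and 2.89% of all genes, and the median was -0.01. The 3 were Prtn3, Lcn2, which the acute phase list also holds, and Ltf, which encodes lactoferrin (-0.52, SE 0.16). Of the rest, S100a8 was at 0.45, Mmp8 at 0.28, S100a9 at 0.15, Ngp at 0.11 and Mpo at 0.02. Mmp9 was at -0.42, Csf3r at -0.31 and Elane at -0.01. Apoptosis regulators, clock genes, ribosome biogenesis genes and CDK inhibitors had 0 genes at that threshold. Of 29 genes of the urea cycle and amino acid breakdown, 3 were higher and 2 lower, and of 21 xenobiotic P450 and receptor genes 1 each way.

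**Figure D5:**
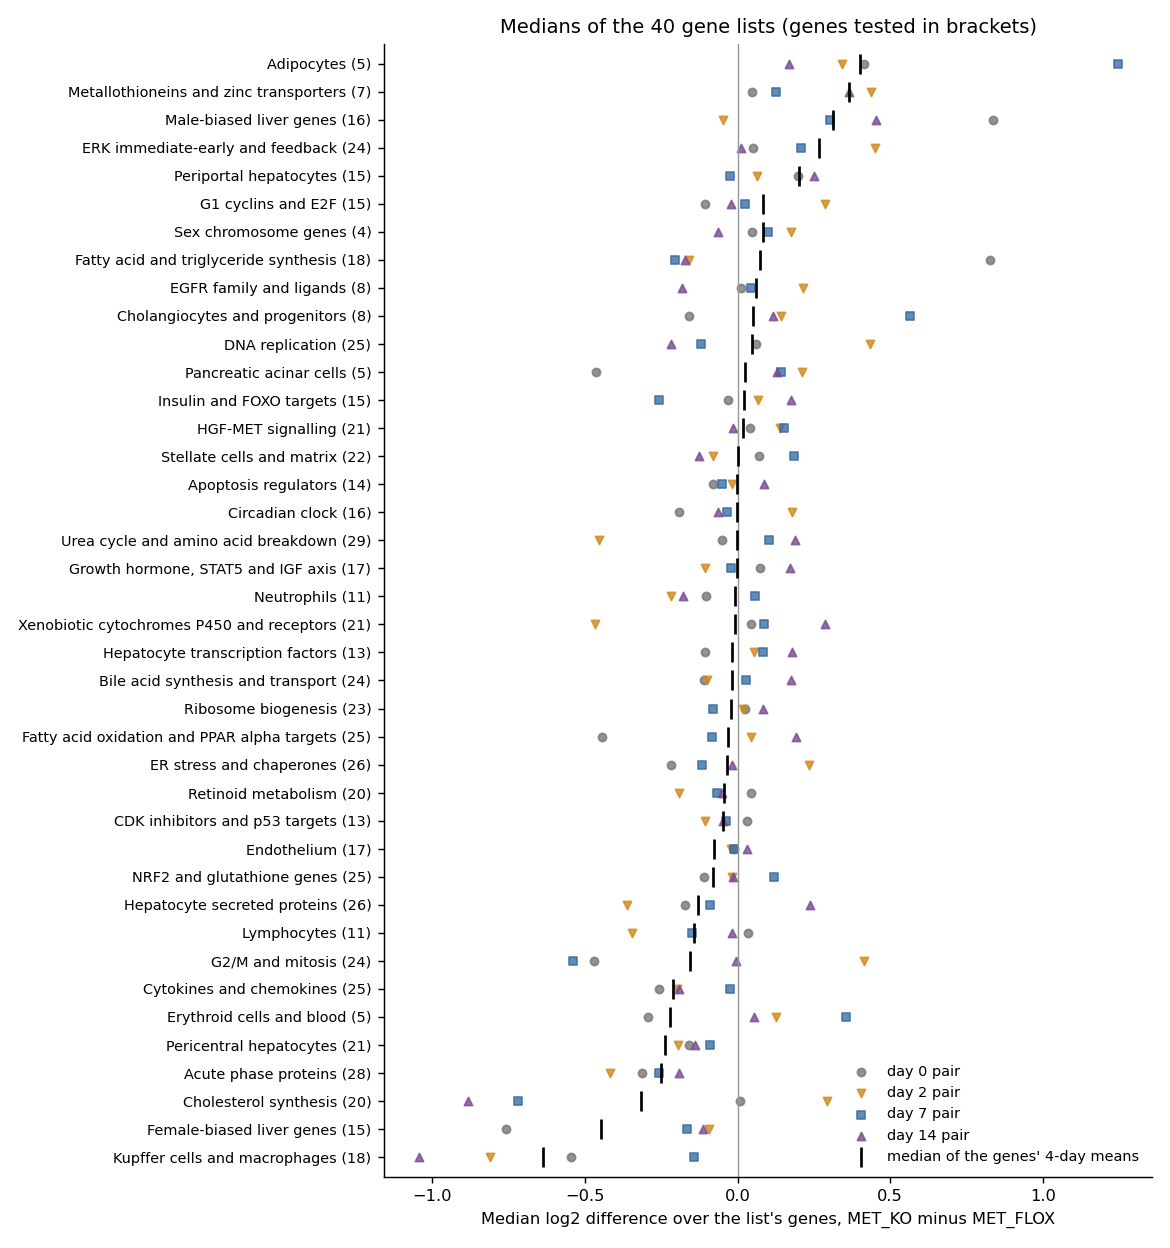
Median log2 difference (MET_KO minus MET_FLOX) of each of the 40 gene lists, with 1 symbol per day pair and the median of the genes' means as a black bar, and the number of genes tested in brackets. Kupffer markers have the lowest median at -0.64, and its 4 day medians run from -1.04 to -0.14.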

How the data were processed

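Liver RNA was hybridised to 1 array per arm and day. The authors deposited linear intensity values, made with MAS5 per the submitters' processing notes (version not stated there). With 2% of probe sets trimmed at each end, every array had a mean of 500. Scaling by array sets every difference relative to the array's own average. Detection calls were not used, so dim signals carry no floor.

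Of 45101 probe sets, 64 controls were left out, 34945 had 1 gene, 932 several and 9160 none. Probe sets with 1 gene above the array median in at least 4 of the 8 arrays were kept (19796), and the brightest stood for its gene (12229 genes). A gene bright in 1 arm alone could pass. limma 3.58.1 in R 4.3.3 was run on log2(signal + 16) with arm and day, an intensity trend in the variance and 3 residual degrees of freedom. The comparison with canertinib used the 8 pair differences (6 degrees of freedom), and days 2 and 14 the 4 pair differences. Days 0 and 7 were added later. The fits were also run on simulated data with the same normal scatter for all genes and no level that changed by day. That simulation cannot show how the fits behave with the scatter of the real arrays.

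Samples were grouped by label, and day served as the pairing. Arrays of both arms at the same day lay 0.462 to 0.621 apart (root mean square of log2 values), those of 1 arm between days 0, 2 and 7 0.543 to 0.763, and between day 14 and these 0.768 to 1.03. The 40 lists (858 entries, 695 tested), the members and the 8-array fit were chosen with earlier results of these data known (all 16 arrays had given 0 genes), and the sex-biased lists were trimmed after a first fit. Named genes were called genes, the 15 largest each way among genes the same way at 4 of 4 days with an unadjusted p below 0.05 and the brighter arm above the median at 3 or more days, up to 4 per list among genes the same way at 4 of 4 days, a fixed set with Met, and up to 6 per test of a difference. Other genes were chosen after their values were seen. In all 138 genes were examined, and 115 were kept for the text after their flags and their stability had been seen. Further list members are given by value alone and are not counted among the 115. Alternatives were the pseudocount, filter, scaling, probe set rule, model and each day pair left out. Promoter windows come from RefSeq (GRCm38.p6).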

Additional observations from a re-analysis of the deposited data

Results flagged for a closer look

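Of 138 genes examined, 6 had 1 day pair far from the other 3, where chance flags about 1 in 20 groups. The 115 genes kept for the text were picked with these outcomes known and hold 5 of the 6. The day 14 pair stood apart for Cyp17a1 at -0.61, for Ctsc at -1.09 and for Plk3 at -4.998. The day 2 pair stood apart for Mvk at 1.28 and the day 0 pair for Elovl6 at 1.51. The gene not kept was G0s2, with 1 pair at 2.02.

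For 16 of the 138 genes the genotype difference had opposite signs with and without canertinib at all days, and 13 of these were kept for the text. The difference of Cyp17a1, without the drug minus with it, was -4.99 and passed the test. For the other 12 it did not, with -6.56 for Mmd2, 8.67 for Hsd3b5, 2.36 for Slco1a1, 2.07 for Cyp2d9, -2.37 for Cyp7b1, 2.75 for Igfbp2, 2.86 for Egr1, -3.70 for Obp2a, -2.38 for Rasal3, 1.53 for Cyp2f2, 1.29 for Hsd17b13 and -1.975 for Krt4. The 3 not kept were Aox3 at 3.85, G0s2 at 1.96 and Lbp at -1.05.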

How the results depend on the processing

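The count of 1 gene called was 1 with a pseudocount of 1 or 64, no filter, a filter over all 16 arrays, median centring and quantile normalization. It was 0 with the mean of a gene's probe sets, no replicate block, no variance trend and either fit of all 16 arrays, and 0 to 4 with a day pair left out. The 85 genes the same way by 1 or more became 52 with a pseudocount of 64, 229 with no filter and 123 to 147 with a day pair left out, where 3 of 3 days sufficed. The comparison with canertinib gave 2 genes with the mean of probe sets, 0 to 9 with a day pair left out, and Cyp17a1 was among them in all but the fit without day 0. Day 14 against the rest gave 1 gene after quantile normalization. Genes were kept for the text after their stability had been seen, so the wider set counts: of 138 genes examined, 18 reversed under some alternative (29 of 2070 values), 10 of them kept and 8 not (Elane, Fasn, Acly, Fads2, Thrsp, S100a9, Me1 and Sqle). Among those kept, with a day pair left out, Mki67 ran from -0.52175 to 0.20898, Cdk1 from -0.80436 to 0.06827, Elovl6 from -0.36312 to 0.32329, Acaca from -0.010763 to 0.49281, Rrm2 from -0.070463 to 0.27382, Mcm5 from -0.082423 to 0.21609, Hgf from -0.013488 to 0.32708, Fdps from -0.8642 to 0.041087 and Siva1 from -0.078285 to 0.33989, which was also -0.015045 with the mean of probe sets, as Hsd17b13 was -0.010276. The cause was not tested. With 1 array per arm and day, precision is limited by the number of arrays, dim genes are near background, and each day's difference rests on 1 pair.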
